A study of Homo sapiens with 4 samples.

Results

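The translation elongation factor genes EEF1A1, EEF1B2, EEF1D, EEF1G, EEF2 and EIF5A, with the kinase gene EEF2K, were followed in MV4-11 cells with and without knockdown of ANP32B. MV4-11 is an established human cell line of acute myeloid leukaemia, and ANP32B is an acidic nuclear phosphoprotein that binds histones. The 7 genes are 7 of the 18885 genes listed with an expression value, and all 7 were among the 16937 genes tested. They were chosen from the measured difference between the sh-ANP32B and NC libraries, in which EEF1G stood out, so their values in that comparison are given as a description and without a p-value. The rule named genes and set no threshold.

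The NC group held 2 libraries of MV4-11 cells for which the labels give no shRNA, and the study calls these control cells sh-NC. The sh-ANP32B group held 2 libraries of MV4-11 cells labelled as an ANP32B knockdown, and the methods describe lentiviral shRNA and selection of stable lines with puromycin. The labels give no time after infection, name no hairpin and do not say whether the libraries of a group came from separate cultures, so any p-value below measures only the spread between these libraries, which may be technical. The value columns of the knockdown libraries are headed S3 rather than sh-ANP32B, and they were assigned to that group as the only columns not headed NC, by replicate number. The values are TPM, a transcript level scaled to gene length and to the total of the library. They no longer hold how many reads were counted, so the depth behind them is unknown.

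Elongation is the stage of protein synthesis in which the ribosome adds amino acids to the growing chain. eEF1A, the product of EEF1A1, brings each aminoacyl-tRNA to the ribosome with GTP, and the eEF1B subunits encoded by EEF1B2, EEF1D and EEF1G act on eEF1A. EEF1B2 and EEF1D encode the subunits that exchange its GDP for GTP, while EEF1G encodes the subunit that holds that complex together. eEF2 moves the ribosome along the mRNA, its kinase eEF2K inhibits it, and eIF5A, which carries the modified amino acid hypusine, helps the ribosome over stretches that are hard to translate. The mRNAs of many of these factors and of ribosomal proteins are known for a pyrimidine tract at their 5′ end, through which growth signals set their translation.

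ANP32B, the targeted gene, measured 358 and 364 TPM in NC and 54.1 and 49.3 TPM in sh-ANP32B, which is 14.3% of the NC mean (limma, Benjamini-Hochberg adjusted p = 2.89e-05), in the direction of the labels. Of the 6 myeloid blast markers, CD33, FLT3, HOXA9, MEIS1 and SPI1 were listed and MPO was not, and their sum was 537 and 550 TPM in NC and 644 and 640 TPM in sh-ANP32B. They went both ways, with SPI1 called higher, at 250.3 and 257 TPM in NC and 361 TPM in each sh-ANP32B library, and MEIS1 called lower, at 44.2 and 47.9 TPM against 30.2 and 29.6 TPM. CD33, FLT3 and HOXA9 were not called, at 133%, 88.4% and 94.9% of NC. Of the 4 monocytic markers, 3 were listed and CD14 was not, and their sum was 475 and 468 TPM in NC and 5337 and 5288 TPM in sh-ANP32B, most of it from LYZ. None of the erythroid, T cell, fibroblast and epithelial markers was listed, and 2 of the 3 B cell markers were, with sums of 7.64 and 8.03 TPM in NC and 1.98 and 4.22 TPM in sh-ANP32B. The monocytic sum thus moved with the groups, and its part in the results below was not tested. In such bulk samples, fewer cells of a type and less RNA per cell cannot be told apart.

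The sequence around the annotated start is shown for the members that carry a pyrimidine tract and, for contrast, for EEF1G and EEF2K, which do not. The tract was searched on the sense strand as a C followed by at least 6 further C or T within a window of 30 bases, from 10 bases before the start onward. The sequences are those of RefSeq on GRCh38.p14, 5′ to 3′, and capitals mark the tract. The windows are chr6:73521013-73521042 on the minus strand for EEF1A1, chr2:206159885-206159914 on the plus strand for EEF1B2, chr19:3985444-3985473 on the minus strand for EEF2, chr11:62573872-62573901 on the minus strand for EEF1G and chr16:22206268-22206297 on the plus strand for EEF2K.
EEF1A1: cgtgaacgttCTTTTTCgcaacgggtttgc
EEF1B2: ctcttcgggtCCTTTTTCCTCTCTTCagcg
EEF2: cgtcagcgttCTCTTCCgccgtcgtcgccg
EEF1G: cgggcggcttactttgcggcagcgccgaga
EEF2K: gcccgcttctgctcaacctagaccagcccc

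In these windows of EEF1A1, EEF1B2 and EEF2 the tract began exactly at the annotated start, and it was longest in EEF1B2, with 16 bases. EEF1B2 has another annotated start upstream, at position 206159609, and no tract was found there. Counted by start, 3 of the 12 annotated starts of the members had a tract, against 14.8% of all 35116 starts. Counted by gene, these are 3 of the 6 members with a start in the table, which had none for EEF1D, against 17.9% of all 27305 genes with a start. A tract that begins within 5 bases of the start was found in the same 3 members and in 9.51% of all genes. With at least 4 further pyrimidines the count became 5 members, adding EEF2K and EIF5A, against 43.4% of genes, and with at least 8 it became 1 member, EEF1B2, against 8.05%. No match says only that these letters are not in this window of an annotated start.

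EEF1A1 and EEF1B2 had log2 differences (sh-ANP32B minus NC) of -0.63 and -0.49, EEF2 had -0.27, and EEF1G and EIF5A, with no tract, had -2.29 and -0.42. In a comparison that covered only part of the 16937 tested genes, the 2003 with a tract had a median log2 difference of 0.03. The 8013 without a tract had 0.04. The E-box CACGTG, a motif that reads the same on both strands and is bound by MYC among other factors, was present in the promoter of EEF2K, 59 bases before the start, and in none of the other 5 members with a start in the table. It was present in 8.77% of all genes in a window from 250 bases before to 50 after the start. MYC itself measured 376 and 370 TPM in NC and 240 and 236 TPM in sh-ANP32B (limma, adjusted p = 1.91e-04).

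By mean TPM in NC, the elongation factor genes ranked from 7 for EEF1A1 to 398 for EEF1D among all listed genes, with EEF2K at 5000. As a group, the 7 genes took a smaller share of the total in sh-ANP32B. Their summed level was 14828 and 13769 TPM in NC, or 1.48% and 1.38% of the library total, and 8728 and 9294 TPM in sh-ANP32B, or 0.875% and 0.932%. On the log2 scale the mean of the sum was lower by 0.67, and the groups did not overlap. EEF1A1 alone supplied most of the sum in every library. EEF2 and EEF1G followed in NC, and then EEF1B2, EIF5A, EEF1D and, far below, EEF2K. Without EEF1G, whose value is uncertain, the sum was 12870 and 11945 TPM in NC, or 1.29% and 1.20% of the total. In sh-ANP32B it was then 8419 and 8814 TPM, or 0.844% and 0.884%.

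**Figure D1:**
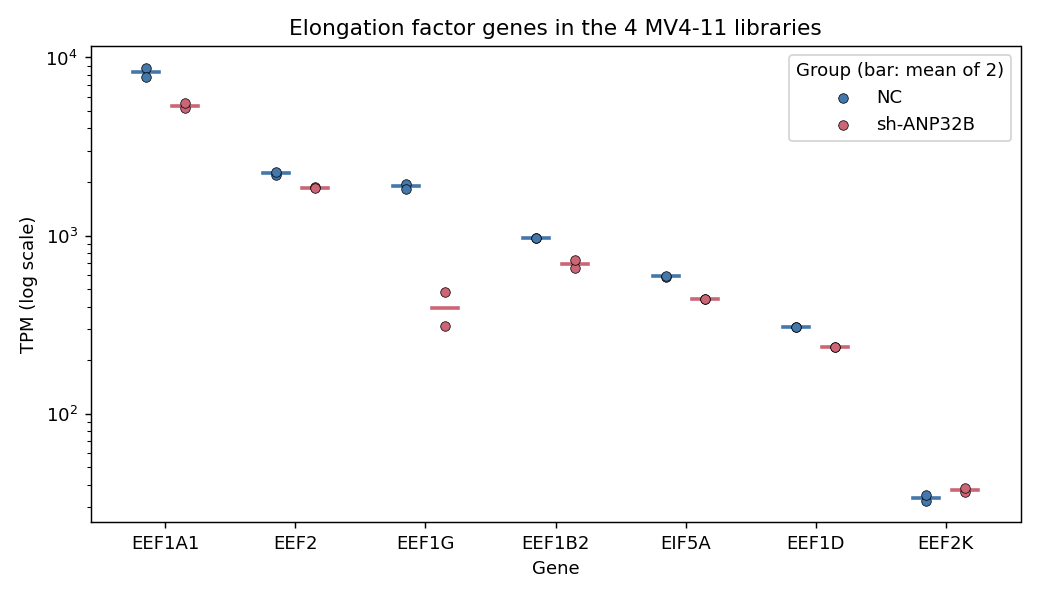
Level of the 7 elongation factor genes in TPM on a log axis, with a point for each of the 2 NC and 2 sh-ANP32B libraries and a bar for each group mean. EEF1G lies lowest relative to its NC level, at 309 and 480 TPM against 1958 and 1824 TPM, and EEF2K is the single gene of the 7 with its sh-ANP32B points above the NC points.

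EEF1A1 (ENSG00000156508, hg38 chr6:73489308-73525587, minus strand) measured 8773 and 7759 TPM in NC and 5174 and 5523 TPM in sh-ANP32B. Both knockdown libraries lay well below both control libraries. The mean was 8266 ± 717 TPM (SD, n = 2) in NC and 5348 ± 247 TPM (SD, n = 2) in sh-ANP32B, which is 64.7% of NC and a log2 difference of -0.63 with a standard error of 0.069. It was the gene with rank 7 of all listed genes by mean TPM in NC and rank 14 in sh-ANP32B.

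Among the exchange subunits, EEF1B2 (ENSG00000114942, chr2:206159585-206162928, plus strand) measured 970.9 and 973 TPM in NC and 654 and 732 TPM in sh-ANP32B. Its mean was 972 ± 1.48 TPM in NC and 693 ± 54.7 TPM in sh-ANP32B (SD, n = 2 each), or 71.3% of NC, a log2 difference of -0.49 with a standard error of 0.058. The groups did not overlap, and the spread was wider in the knockdown. EEF1D (ENSG00000104529, chr8:143579697-143599541, minus strand) measured 307 and 306 TPM in NC and 236 TPM in each sh-ANP32B library. It had the closest sh-ANP32B replicates of the 7 genes and a log2 difference of -0.38 with a standard error of 0.035, or 77.0% of NC.

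EEF1G (ENSG00000254772, chr11:62559596-62574086, minus strand) measured 1958 and 1824 TPM in NC and 309 and 480 TPM in sh-ANP32B. The groups lay far apart, and the knockdown libraries differed from each other 1.55-fold, more than the replicates of any other of the 7 genes. The mean was 1891 ± 94.6 TPM (SD, n = 2) in NC and 394 ± 121 TPM (SD, n = 2) in sh-ANP32B, or 20.9% of NC, a log2 difference of -2.29 with a standard error of 0.195. Its rank by mean TPM went from 60 to 276. The annotation of its locus is described after the other members.

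EEF2 (ENSG00000167658, chr19:3976056-3985463, minus strand) measured 2200.1 and 2275 TPM in NC and 1879 and 1842 TPM in sh-ANP32B, with no overlap. The mean was 83.2% of NC, the smallest shortfall of the 6 genes that were lower, with a log2 difference of -0.27 and a standard error of 0.036. EEF2 held rank 45 in NC and rank 48 in sh-ANP32B. Under quantile normalization, which gives each library the same distribution, its difference came to -0.02.

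EEF2K (ENSG00000103319, chr16:22206278-22288738, plus strand), the kinase that inhibits eEF2, measured 32.6 and 35.1 TPM in NC and 36.4 and 38.2 TPM in sh-ANP32B. It was the only member with a higher mean in the knockdown, 110% of NC, with a log2 difference of 0.14 and a standard error of 0.070. The gap between the groups, from 35.1 to 36.4 TPM, was smaller than the gap between the replicates of either group. The median log2 difference of all tested genes was 0.08, so EEF2K lay close to it. The ratio of EEF2 to EEF2K was 67.6 and 64.8 in NC and 51.7 and 48.2 in sh-ANP32B.

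EIF5A (ENSG00000132507, chr17:7306999-7312463, plus strand) measured 586 and 597 TPM in NC and 439.7 and 443 TPM in sh-ANP32B. The replicates were close in both groups, which did not overlap, and the mean was 74.6% of NC, a log2 difference of -0.42 with a standard error of 0.034. Among the members, EEF1D, EIF5A and EEF1B2 thus lay within a narrow band of each other, between 71.3% and 77.0% of NC.

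Counted together, 6 of the 7 genes had a lower mean in sh-ANP32B. Over all tested genes, 10.1% were called lower and 17.9% higher, by an adjusted p below 0.05 in limma and a log2 difference beyond 0.5. As the members were chosen on this contrast, nothing is read from their counts. EEF1A1 and EEF1G lay beyond a log2 difference of 0.5, and EEF1B2, at -0.49, lay just within it and reached -0.53 under median-of-ratios scaling and -0.57 without sh-ANP32B replicate 2. The median log2 difference of the 7 genes was -0.42, and -0.40 without EEF1G, while 43.7% of all tested genes had a negative difference. The median of all tested genes was 0.08 on the deposited scale and -0.04 after quantile normalization, and no member changed sign between these scales.

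**Figure D2:**
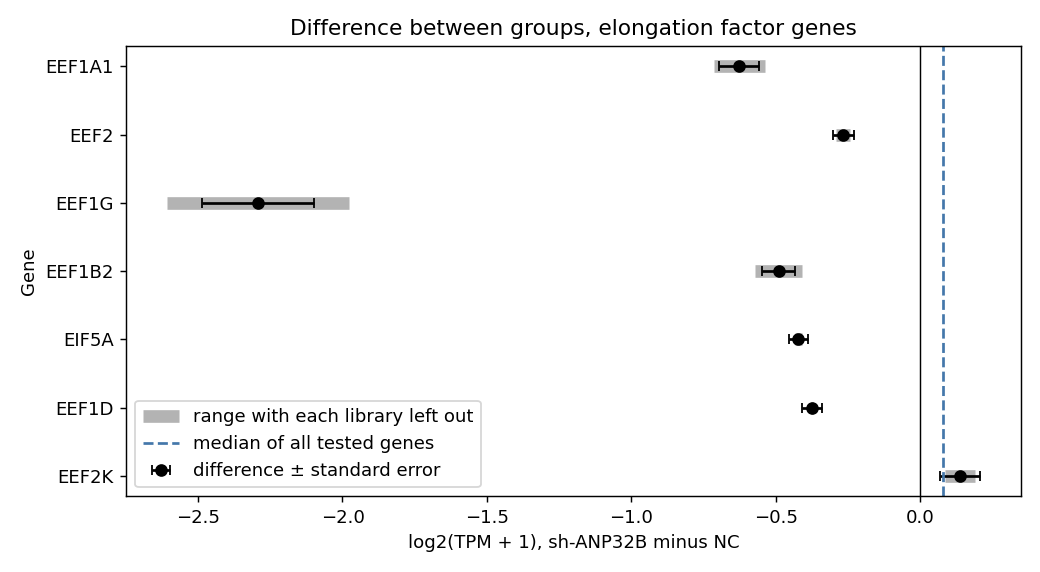
Difference between the groups for each of the 7 genes in log2(TPM + 1), sh-ANP32B minus NC, with points for the difference, thin bars for the standard error and grey bars for the range when each library is left out. The dashed line is the median of all tested genes, 0.08, and EEF1G has both the largest difference, -2.29, and the widest range, from -2.61 to -1.98.

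The proportions between the members show which of them moved apart. The ratio of EEF1A1 to EEF1B2 was 9.04 and 7.97 in NC and 7.91 and 7.55 in sh-ANP32B, and that of EEF1B2 to EEF1D was 3.16 and 3.18 against 2.77 and 3.103. In both pairs the knockdown values lay below the NC values, by little beside the pairs with EEF1G. EEF1A1 to EEF2 was 3.99 and 3.41 in NC and 2.75 and 2.998 in sh-ANP32B, lower in both knockdown libraries. The ratio of EEF1G to EEF1B2, subunits of the same complex, was 2.02 and 1.87 in NC and 0.472 and 0.656 in sh-ANP32B, and that of EEF1A1 to EEF1G was 4.48 and 4.25 against 16.7 and 11.5. EEF1G, above EEF1B2 in both NC libraries, lay below it in both knockdown libraries, where its 2 values enclosed those of EIF5A.

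The EEF1G locus holds a second annotated gene on the same strand that covers nearly all of EEF1G. This gene, ENSG00000255508 (hg38 chr11:62559603-62591531, minus strand), has no symbol in the tables used and is tagged in GENCODE version 44 as a readthrough gene, one whose transcripts run from the upstream gene TUT1 into EEF1G. Its canonical transcript has 17 exons and 5064 bases and is annotated as a target of nonsense-mediated decay, against 10 exons and 1446 bases for EEF1G. Of the 2639 exonic bases of EEF1G, 2632 (99.7%) are also exonic in the readthrough gene, which leaves 7 bases of its own. TUT1 (chr11:62575045-62591637, minus strand), which encodes a terminal uridylyltransferase, shares 1648 of its 3542 exonic bases (46.5%) with it.

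**Figure D3:**
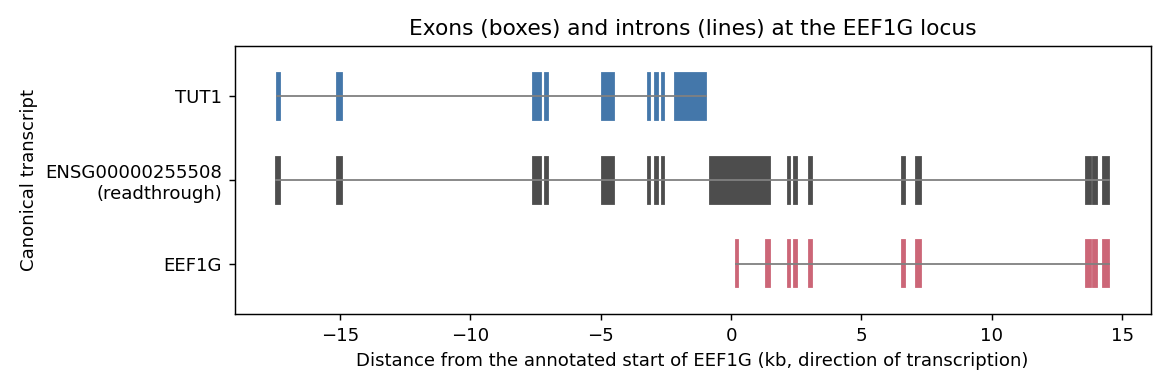
Exons (boxes) and introns (lines) of the canonical transcripts of TUT1, ENSG00000255508 and EEF1G, drawn to scale in the direction of transcription. Distance is in kb from the outermost annotated start of the EEF1G gene (chr11:62574086), and the EEF1G transcript drawn begins 195 bases further on. The readthrough transcript carries exons of both neighbours, and 7 of the 10 exons of EEF1G are identical in it.

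Reads across the junction into exon 2 of EEF1G (chr11:62572584-62572742) are an example of what can tell the transcripts apart. Shown are 15 bases on each side of that junction in a transcript of EEF1G (ENST00000329251.5, from exon 1 at chr11:62573831-62573891) and in one of the readthrough transcripts with the same exon (ENST00000526409.5, from its exon 4 at chr11:62574677-62574908). Both are from the hg38 sequence, minus strand, 5′ to 3′, with the shared exon in capitals.
EEF1G: accatggcggctgggACCCTGTACACGTAT
ENSG00000255508: ccgttcttaaactggACCCTGTACACGTAT
The bases in capitals are the same, as is most of the sequence downstream, so a read that lies wholly within the shared exons could be counted for either gene. The deposited values are per gene, and junction reads were not analysed here.

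The readthrough gene moved opposite to EEF1G. It measured 99.5 and 137 TPM in NC and 480.4 and 441 TPM in sh-ANP32B, a mean of 118 ± 26.6 TPM against 461 ± 28.1 TPM (SD, n = 2 each), or 389% of NC and a log2 difference of 1.97 with a standard error of 0.147. No p-value is given, since its reads cannot be separated from those of EEF1G. Within each group, the library with the higher EEF1G had the lower readthrough level. TUT1, which shares the upstream exons, measured 9.65 and 9.50 TPM in NC and 10.1 and 7.87 TPM in sh-ANP32B. Its groups overlapped, with a log2 difference of -0.09. It is given without a p-value too, as 46.5% of its exonic bases are shared with the readthrough gene. The ratio of EEF1G to the readthrough gene went from 19.7 and 13.3 in NC to 0.643 and 1.09 in sh-ANP32B, and that of the readthrough gene to TUT1 from 10.3 and 14.4 to 47.5 and 56.0.

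Taking EEF1G and the readthrough gene as a single locus gave a smaller difference, whose size depends on how they are added. The plain sum was 2057 and 1961 TPM in NC and 789.5 and 920.3 TPM in sh-ANP32B, 42.6% of NC and a log2 difference of -1.24. TPM divides reads by length, so a read given to the longer gene counts for less. Weighting the readthrough gene by the ratio of exonic lengths, 1.97, gave 2154 and 2094 in NC and 1255 and 1347 in sh-ANP32B, 61.3% of NC and -0.71 on the log2 scale.

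Weighting by the ratio of the canonical transcript lengths, 3.50, a choice made after the data were seen, gave 2306 and 2304 in NC and 1991 and 2023 in sh-ANP32B. This is 87.1% of NC and -0.20 on the log2 scale, and the groups did not overlap under any of the 3 ways of adding. The SD between replicates on the log2 scale was 0.116 for the plain sum, 0.055 with exonic lengths and 0.011 with canonical lengths. The lengths the authors used are not given in the sources used here. How reads of the shared exons were divided between the 2 genes was not tested.

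**Figure D4:**
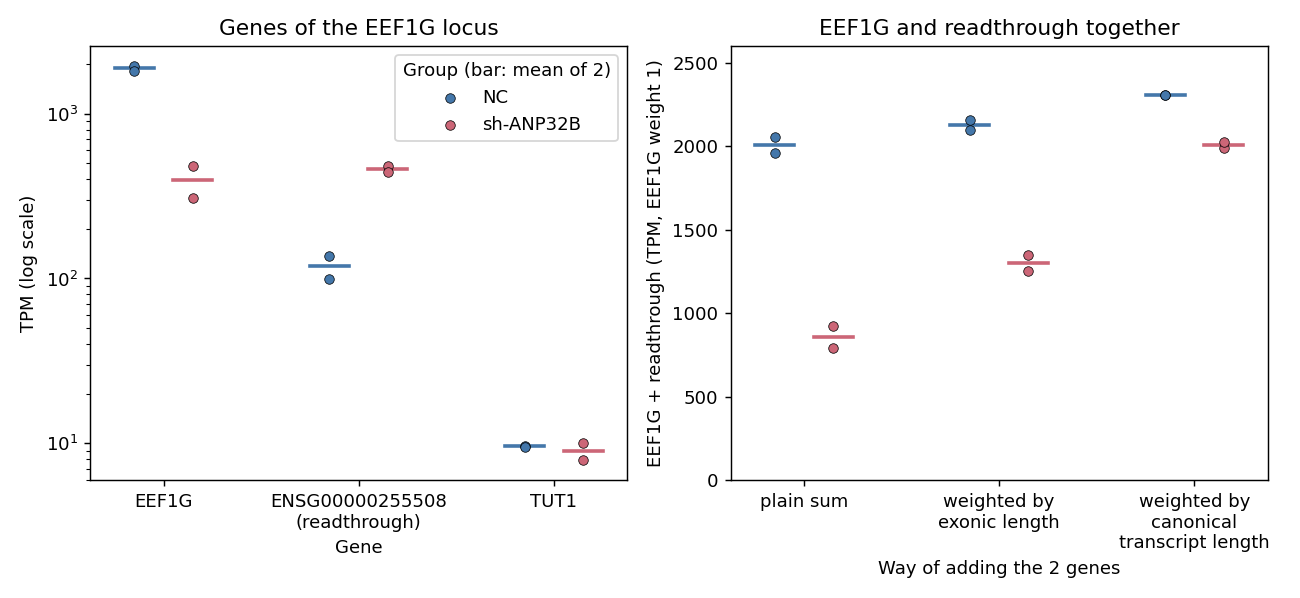
Left, level of EEF1G, ENSG00000255508 and TUT1 in TPM on a log axis, and right, EEF1G and the readthrough gene added in 3 ways, with EEF1G at weight 1, on a linear axis from 0. Points are libraries and bars the means of 2, and the gap between the groups narrows from 42.6% of NC in the plain sum to 87.1% with canonical transcript lengths.

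The same opposite pattern was looked for at other readthrough genes. Among tested genes that share at least 50% of their exonic bases with a readthrough gene on the same strand there were 54 pairs, with 53 genes, and in 20 pairs the signs of the differences were opposite. In 2 pairs both differences also went beyond 0.5 on the log2 scale. These were EEF1G and TTC4, a gene for a chaperone cofactor. TTC4 had a log2 difference of -1.06 against 1.59 for MROH7-TTC4. Other opposite pairs fell just short of the limit, such as ACY1 at -0.46 against 1.26 and P2RY11 at 0.48 against -1.47. TTC4, ACY1 and P2RY11 were named after their values were seen. EEF1G had the lowest difference of the 53 genes, but it was chosen on this contrast, so nothing is read from that position.

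The other members share little with genes on their own strand. Leaving EEF1G aside, same-strand exonic overlaps were with small RNA genes, 132 bases of EEF1B2 with SNORA41 and 182 with ENSG00000277502, and 28 bases of EEF2 with SNORD37. On the opposite strand, EEF1A1 shares 119 bases with MTO1 and 218 with EEF1A1-AS1, and EIF5A shares 241 with GPS2. EEF1D shares 2934 bases with ENSG00000279605, 297 with ENSG00000254741 and 261 with TIGD5, and EEF2K shares 714 with ENSG00000261113. Of these partners, EEF1A1-AS1, ENSG00000277502, ENSG00000254741 and ENSG00000261113 were not listed. As the strand setting of the counting is not given in the sources used here, reads from such overlaps cannot be told apart. GPS2 measured 50.6 and 52.3 TPM in NC and 37.4 and 40.4 TPM in sh-ANP32B, and MTO1 24.2 and 21.3 TPM against 17.9 and 17.0 TPM, low beside EIF5A and EEF1A1.

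Near-identical copies are a further source of uncertainty, most of all for EEF1A1. GENCODE annotates 49 processed or other pseudogenes under its name, of which 5 were listed, and their sum was 4.22% of the EEF1A1 level in NC. EEF1A1P5 measured 261 and 267 TPM in NC and 225 and 226 TPM in sh-ANP32B, and EEF1A1P6 74.1 and 79.6 TPM against 68.4 and 70.9 TPM. EEF1B2P3 measured 51.1 and 49.9 TPM in NC and 35.7 and 42.6 TPM in sh-ANP32B, and EIF5AP4 21.9 and 25.1 TPM against 17.7 and 11.9 TPM. Of the tested copies only EIF5AP4 was called, with a log2 difference of -0.66 (limma, adjusted p = 0.0354). The values of these 4 lay lower in both knockdown libraries. The other listed pseudogenes were below 4 TPM in every library, and of them EEF1A1P13, EEF1A1P19 and EEF1B2P6 overlapped between the groups, while EEF1A1P11 and EEF1DP1 lay lower in both knockdown libraries. How reads were divided between parents and copies is not given in the sources used here. None of the 8 annotated pseudogenes of EEF1G was listed.

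Paralogs were low. EIF5A2 measured 2.39 and 2.45 TPM in NC and 3.31 and 3.77 TPM in sh-ANP32B, and EIF5AL1 4.44 and 4.16 TPM against 2.46 and 3.09 TPM. Neither was called (limma, adjusted p = 0.104 and 0.0663), and both were below 1% of the EIF5A level. EEF1A2 was not in the list, whose lowest mean over the libraries is 0.5 TPM.

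To see what else of the machinery moved, 6 lists of genes that act with or modify the elongation factors were compared, 52 genes in all, of which 48 were listed and tested. In limma, 8 were called lower and 2 higher, beside 10.1% and 17.9% of all tested genes, and 38 were not called. Their median log2 difference was -0.28, against 0.08 over all tested genes, and 38 of the 48 were negative. By the adjusted p alone, with no limit on the difference, 26 passed, 23 lower and 3 higher. Over all 16937 tested genes, 3342 passed as lower and 4405 as higher on the same terms.

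Partners and methyltransferases of eEF1 had 7 tested genes, of which 3 were lower and none higher, with a median of -0.44. EEF1E1, which encodes a scaffold protein of the multi-tRNA synthetase complex, fell from 38.7 and 35.3 TPM to 22.6 and 23.1 TPM, a log2 difference of -0.67 (limma, adjusted p = 0.00140). VARS1, the valyl-tRNA synthetase that binds the eEF1 complex, fell from 24.5 and 24.2 TPM to 15.7 and 14.1 TPM, also by 0.67 on the log2 scale (adjusted p = 0.00242, limma). EEF1AKMT1, a lysine methyltransferase of eEF1A, fell from 20.5 and 21.4 TPM to 14.3 and 14.4 TPM, a difference of -0.51 (limma, adjusted p = 0.00488) that was not called without NC replicate 2, at -0.48. The other 4, TPT1, EEF1AKMT2, EEF1AKMT3 and METTL13, had differences from -0.44 to -0.24 and were not called. All 7 differences were negative, as were 43.7% of those of all tested genes. The values of EEF1AKMT2 overlapped between the groups, at 30.4 and 22.3 TPM in NC and 20.2 and 22.9 TPM in sh-ANP32B.

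Genes for diphthamide, the modified histidine of eEF2, and for other eEF2 modification had 8 tested members and a median of -0.19. DNAJC24, a J-domain protein of diphthamide synthesis, was called higher, at 6.03 and 5.21 TPM in NC and 8.91 and 7.82 TPM in sh-ANP32B, with a log2 difference of 0.50 at the limit itself (limma, adjusted p = 0.0348). It was not called with any of the 4 libraries left out, where its adjusted p in limma went up to 0.144, nor after median-of-ratios scaling or quantile normalization. The other 7 ranged from -0.49 for DPH5 to 0.46 for DPH3.

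Genes for hypusine and polyamines, from which hypusine is made, had 13 tested members, 2 lower and 1 higher, with a median of -0.36. DOHH, the hydroxylase of the last step of hypusine synthesis on eIF5A, fell from 54.9 and 36.7 TPM to 18.4 and 16.9 TPM, by 1.30 on the log2 scale (limma, adjusted p = 0.00329), with NC libraries that differed from each other more than the knockdown libraries did. With single libraries left out, and over the other settings, it stayed between -1.59 and -1.02 and was called in all 11. DHPS, the enzyme of the preceding step, measured 134 and 146 TPM in NC and 131 and 133 TPM in sh-ANP32B and was not called (log2 difference -0.08, limma, adjusted p = 0.244), and it was named for its place beside DOHH after the values were seen.

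On the polyamine side, ODC1, the rate-limiting enzyme of polyamine synthesis, fell from 174 and 178 TPM to 122.7 and 122.6 TPM, a log2 difference of -0.52 (limma, adjusted p = 4.07e-04). SAT1, which acetylates spermidine and spermine for breakdown and export, rose from 58.0 and 57.0 TPM to 161 and 165 TPM, by 1.49 on the log2 scale (limma, adjusted p = 6.16e-05). SAT1 was called in all 11 alternatives, between 1.44 and 1.52, and ODC1 in 10 of them. The spermidine synthase SRM, at 528 and 511 TPM against 380.5 and 394 TPM, and the spermine synthase SMS, at 121 and 119.9 TPM against 93.2 and 87.6 TPM, had differences of -0.42 and -0.41, within the limit, with adjusted p of 7.28e-04 and 0.00179 in limma. They too were named after their values were seen.

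In the mitochondrial machinery, with 5 tested genes and a median of -0.24, TUFM, the mitochondrial counterpart of eEF1A, fell from 330 and 343 TPM to 201 and 198 TPM, by 0.75 on the log2 scale (limma, adjusted p = 1.68e-04). TSFM, GFM1, GFM2 and GUF1 were not called, with differences from -0.31 to 0.04. Of the 9 selenocysteine factors and GTPase relatives none was called, from -0.45 for EEFSEC to 0.12 for GTPBP2, although 3 passed the adjusted p alone in limma.

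Termination and recycling had 6 tested genes, all negative, with 2 called lower and a median of -0.38. ABCE1, the ATPase that splits ribosomes after termination, fell from 119 and 115 TPM to 77.2 and 74.2 TPM, by 0.62 on the log2 scale (limma, adjusted p = 4.34e-04). EIF2D, a recycling and initiation factor, fell from 93.2 and 95.4 TPM to 66.1 and 64.7 TPM, by 0.52 (limma, adjusted p = 6.52e-04). Its call was lost after quantile normalization, at -0.50, and without mitochondrially encoded genes, at -0.49. ETF1 and GSPT1, the release factors, had -0.08 and -0.47 and were not called.

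**Figure D5:**
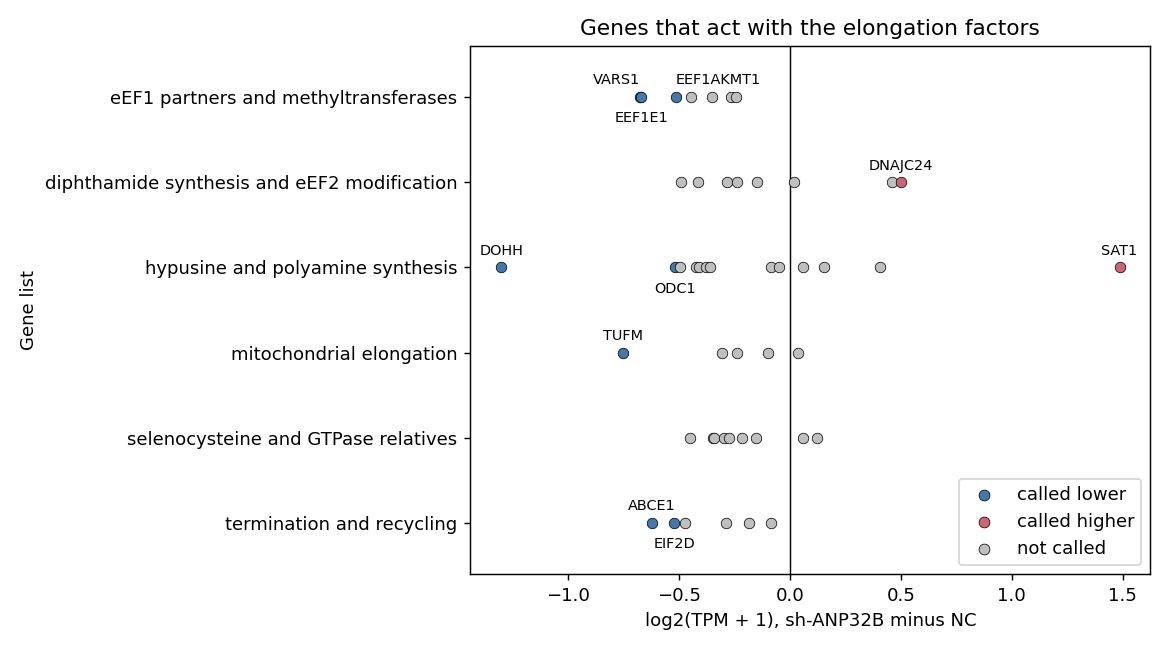
Difference in log2(TPM + 1), sh-ANP32B minus NC, of the 48 tested genes in 6 lists that act with the elongation factors, with a point for each gene, coloured by its call. Of the 48 genes, 38 lie left of 0, 8 are called lower and 2 higher, with DOHH at -1.30 and SAT1 at 1.49 as the extremes.

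Set beside the rest of the translation apparatus, the members other than EEF1G lay in the same range. The 81 cytosolic ribosomal protein genes had a median log2 difference of -0.40, the value of the members without EEF1G, with 79 negative, 20 called lower and none higher, where 43.7% of all tested genes were negative, 10.1% called lower and 17.9% higher. They ranged from -0.87 for RPL23 to 0.20 for RPS27L. Of these 81 genes, 6 lay below EEF1A1 and none below EEF1G. As the members were chosen on this contrast, nothing is read from these positions. The 39 initiation factor genes had a median of -0.30, with 34 negative, 2 called lower and 1 higher, which was EIF4E3 at 1.12. These sets were taken by gene symbol after the data had been seen, and the median over all tested genes was 0.08.

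Finally, the genes whose profile over the 4 libraries was most like that of EEF1G were sought among 9638 other tested genes averaging 10 TPM or more, by Euclidean distance of log2(TPM + 1) centred on each gene. The 5 nearest were PSMB5, ACY3, EI24, MFAP4 and ANP32B, at distances of 0.610 to 0.734 on the log2 scale. Their log2 differences were -1.94, -1.91, -1.79, -1.85 and -2.78. For EEF2K, with its small difference, the 5 nearest were CPOX, TSG101, ALAS1, CEP43 and TBK1, at distances of 0.00924 to 0.0298. With 4 libraries in 2 groups, these distances mostly rank genes by the size of their group difference.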

How the data were processed

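RNA from 2 NC and 2 sh-ANP32B samples of MV4-11 cells was sequenced after TruSeq library preparation. Per the submitters' notes and the study's methods, the authors aligned reads to hg38 with HISAT2 (v2.0.5), and they deposited TPM per gene. The unit was read from the values, since libraries sum to 997271 to 998546. The tool, annotation, gene lengths and strand setting behind the TPM are not given in the sources used here. Mitochondrial genes held 15.4% to 17.6% of the TPM.

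A gene was tested if 2 or more libraries reached 1 TPM, with limma 3.58.1 in R 4.3.3 (lmFit, eBayes with trend) on log2(TPM + 1), whose fold changes understate those of low genes. A call needed a log2 difference beyond 0.5 and an adjusted p (Benjamini-Hochberg) below 0.05. The study's DESeq2 test needs counts and was not run. Symbols were found for 17290 of the 18885 identifiers. Overlaps come from GENCODE version 44 on hg38, and start sites from RefSeq. Python 3.11.15, numpy 2.4.6, pandas 2.3.3 and matplotlib 3.10.9 were used.

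The members and lists were chosen with earlier results of these data known. Named genes are the members, the gene sharing exons with EEF1G, and listed copies and paralogs. They also include called genes of the 6 lists, the 5 nearest to EEF1G and to EEF2K, the cell type markers, ANP32B and MYC. Genes named outside this rule should be taken as chosen after their values were seen, whether or not the text says so. Among them are TUT1, overlap partners, the ends of ranges, ETF1 and GSPT1. Alternatives were other scalings, filters, limits and pseudocounts, a replicate block, and each library left out.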

Additional observations from a re-analysis of the deposited data

How the results depend on the processing

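No member changed sign under any of 11 alternatives, in which EEF1A1 ranged from -0.82 to -0.54, EEF1B2 from -0.57 to -0.41, EEF1D from -0.42 to -0.30, EEF1G from -2.61 (without sh-ANP32B replicate 2) to -1.98 (without sh-ANP32B replicate 1), EEF2 from -0.31 to -0.02, EEF2K from 0.09 to 0.19 and EIF5A from -0.46 to -0.39 on the log2 scale. EEF1G with the readthrough gene went from -1.24 to -0.71 with exonic and -0.20 with canonical lengths, through the weight alone. Members with a pyrimidine tract went from 3 to 5 with at least 4 further pyrimidines and to 1 with at least 8. In the related lists, the 8 lower genes became 5 without mitochondrially encoded genes, where EEF1AKMT1, ODC1 and EIF2D lost their call, 23 with no limit on the difference and 1 with a limit of 1. The 2 higher genes became 1, SAT1, under median-of-ratios scaling, quantile normalization and the limit of 1. With each library left out, SAT1 ranged from 1.47 to 1.51 and DNAJC24 from 0.41 to 0.59. Over all tested genes, 1712 lower became 3342 with no limit and 273 with a limit of 1, and 3024 higher became 1136 with a limit of 1. Of all calls, 36.1% were lower, and 50.2% after quantile normalization. The cause of these shifts was not tested where the setting does not itself set it.

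The labels link same-numbered replicates by number only and do not say whether they shared a culture or a batch (correlation of deviations -0.0232). A replicate block in the model left 1671 lower and 2853 higher calls, while the related lists held 8 lower and 2 higher genes. With 2 libraries per group and an unknown depth, no counting error can be given.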
